A study of Homo sapiens with 12 samples.

Results

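The messenger RNAs bound by dSpCas9 were described here at 1 place, the distal 3′ UTR, which here means the stretch of the 3′ untranslated region (3′ UTR) from its midpoint to the end of the transcript. A peak was a member when its midpoint lay, on the same strand, in the 3′ UTR of the Ensembl canonical transcript of a protein-coding gene (GENCODE 44), past the midpoint of that 3′ UTR in spliced bases, and when the peak did not overlap the stop codon. Of the 18128 peaks in 4 lists, 2554 were members, and they lay in 844 of the 3467 genes with a peak on the canonical mRNA. Membership depended on position alone, not on enrichment. Over V5 size-matched input there were 906 members of 6605 peaks, over the V5 empty vector IP 319 of 3005, over FLAG size-matched input 953 of 6554, and over the FLAG empty vector IP 376 of 1964.

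The study asked which RNAs a nuclease-dead Streptococcus pyogenes Cas9 touches in human cells that carry no guide RNA. Lenti-X 293T cells, a human embryonic kidney line (HEK 293T), were transfected with pCDNA3.1 carrying dSpCas9 without a nuclear localization signal and with either a V5 or a 3xFLAG tag, and the control cells received the empty plasmid. Cells were cross-linked with UV light at 400 mJ/cm2, with 2 exposures according to the labels, and RNA above 115 kDa on the membrane was sequenced by eCLIP, a method that recovers a protein by immunoprecipitation (IP) with the RNA it was cross-linked to. The 12 libraries formed 6 groups of 2 replicates: for each tag the IP, its size-matched input (RNA from the same membrane region with no IP) and the IP with the same antibody from empty vector cells. Each list held 1 value per peak for both replicates, the log2 of how many times more reads the IP had than its control (log2 enrichment), so no spread between replicates could be computed. V5 and FLAG lists shared no library, whereas the pair of lists of each tag shared their IP libraries. The labels describe the replicates as biological, and all came from 1 cell line with transient transfection.

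The 3′ UTR follows the stop codon and is not translated. It carries sites for microRNAs and RNA-binding proteins that set the stability, translation and location of an mRNA. Its distal end holds the polyadenylation signal, usually AAUAAA or AUUAAA, which directs cleavage and addition of the poly(A) tail, and many genes use more than 1 such signal and so make 3′ UTRs of different length. AU-rich elements with the core AUUUA and sites of Pumilio proteins are well-known signals of 3′ UTRs. The sequence motif described for dSpCas9 in the study, the GU-loop:5nt-stem, is a GU in a loop followed directly by 5 paired bases.

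Sequences of the reference genome (hg38) are shown for distal loci with a peak in all 4 lists, to let the motif be seen where binding was highest and nearest to the transcript end. Each is 30 bases, 5′ to 3′ on the strand of the mRNA, with T for U. Capitals mark the GU and the 5 following bases of the first motif call within the stretch covered by all 4 lists. That stretch held 2 calls in TNPO2, TRIB3 and PPP1CA and 3 in RBM15, and the further calls are not marked. CDKN1A lies at chr6:36686774-36686803 (plus strand), TNPO2 at chr19:12700137-12700166 (minus), UNC119B at chr12:120723078-120723107 (plus), TRIB3 at chr20:397427-397456 (plus), IQSEC1 at chr3:12898073-12898102 (minus), SLC38A1 at chr12:46185569-46185598 (minus) and PPP1CA at chr11:67398258-67398287 (minus). PMVK at chr1:154924781-154924810 (minus) and RBM15 at chr1:110346588-110346617 (plus) are, with PPP1CA, the 3 loci nearest to a transcript end. L3MBTL2 at chr22:41230794-41230823 (plus) and ARF3 at chr12:48937232-48937261 (minus) had no call in the shared stretch, and its middle is shown without capitals.
CDKN1A: cctcctctagctGTGGGGGtgagggtccca
TNPO2: gaaaggtggtgtGTCCCCTgttccctattc
UNC119B: tgtacaaactggGTGAGTCctgccttagtg
TRIB3: gccacctggaaaGTCCCAGgtgggactctt
IQSEC1: tcccttctcactGTGAGGAcgcccttggca
SLC38A1: tccaatgtaccaGTCATTGaggccagcgcg
PPP1CA: gcaggccaggtcGTGGGTCtccagccgtgc
PMVK: tctcagccccttGTTCTGGgcaagaaccca
RBM15: cacagcttaagaGTAGCTGtctctcaaacg
L3MBTL2: ctcctcctagctccccagggatgttgggga
ARF3: agtagggctgtcccaagccccactccatgg
Of the 12 loci with the highest enrichment described further on, 7 held a call in the shared stretch and 5 did not. Of those without a call, MAPKAPK2, UCK1 and GID4 are not shown. Over the whole locus, which is longer than the shared stretch, 96 of all 131 distal loci in 4 lists held a call (73.3%).

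Peaks were fewer past the midpoint of the 3′ UTR than before it and were fewest at its end. The distal 3′ UTR held 38.7% of the 2342 3′ UTR peaks over V5 input (95% Wilson interval 36.7 to 40.7), 40.7% of 784 over the V5 empty vector IP (37.3 to 44.2), 39.1% of 2435 over FLAG input (37.2 to 41.1) and 43.4% of 867 over the FLAG empty vector IP (40.1 to 46.7). The intervals cover counting error only, since peaks of 1 mRNA are not independent. All 4 shares were below 50%, the share that an even spread over the 3′ UTR would give. The 3′ UTR was cut into 10 equal bins from the stop codon. Peaks that overlapped the stop codon were not binned. They numbered 167 over V5 input, 75 over the V5 empty vector IP, 182 over FLAG input and 55 over the FLAG empty vector IP. Their midpoints can lie in bin 1, which is therefore undercounted, by how many was not determined. Before the midpoint, the share of the 3′ UTR peaks so counted was higher in bin 5 than in bin 1. It went from 11.7% to 12.1% over V5 input and from 11.5% to 12.4% over FLAG input. Over the V5 empty vector IP it went from 9.95% to 12.6%, and over the FLAG empty vector IP from 7.73% to 13.8%. Given the undercount in bin 1, these values cannot show whether the share fell before the midpoint. Past the midpoint, bin 6 held 245, 92, 257 and 105 peaks in the order V5 input, V5 empty vector IP, FLAG input and FLAG empty vector IP. In the same order bin 9 held 199, 62, 205 and 87 peaks, and the last bin held 76, 26, 67 and 20. The last bin thus had 3.25%, 3.32%, 2.75% and 2.31% of the 3′ UTR peaks of these lists.

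**Figure D1:**
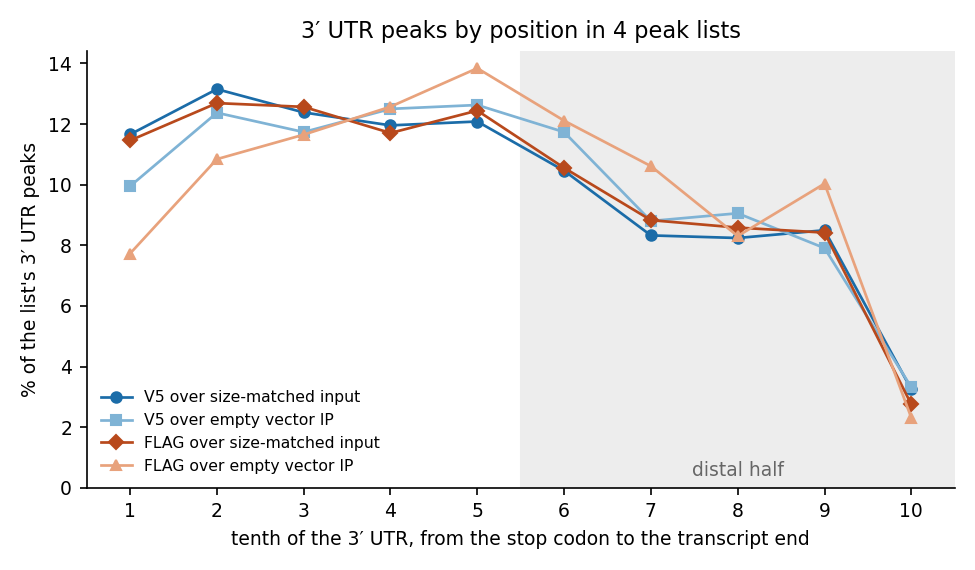
Share of each list's 3′ UTR peaks (vertical axis, %) in 10 equal bins from the stop codon to the transcript end (horizontal axis), with 1 line per list and the distal 3′ UTR shaded. In all 4 lists the share in the last bin, 2.31% to 3.32%, was the lowest of all bins. Peaks that overlapped the stop codon are not counted, which lowers bin 1.

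The same fall showed in nucleotides. The median distance from a distal peak to the transcript end was 509.5 nt over V5 input, 567 nt over the V5 empty vector IP, 539 nt over FLAG input and 583 nt over the FLAG empty vector IP, in 3′ UTRs with a median length of 2173, 2433, 2217 and 2437 nt. Only 22, 10, 23 and 11 peaks in this order came within 50 nt of the annotated end, which was 2.43%, 3.13%, 2.41% and 2.93% of the distal peaks. Within 100 nt there were 73, 25, 78 and 30. The share of 3′ UTR peaks that were distal showed no single trend with length: over V5 input it was 41.8% (32.2 to 52.0) in 3′ UTRs under 500 nt and 34.9% (30.8 to 39.3) in those of 4000 nt or more, whereas over the V5 empty vector IP it was 40% (23.4 to 59.3) and 44.8% (37.0 to 53). No peak placed outside the canonical mRNAs had its midpoint in the 100 nt past a canonical transcript end, and 3 distal peaks ran past the end. Peaks placed on another canonical mRNA were not looked at for this count.

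Base content changed over the same stretch. In the 844 genes with a distal peak, 11.3% of the bases of the distal 3′ UTRs lay in a peak of at least 1 list. The share was 16.5% at 200 to 399 nt from the end, 15.2% at 100 to 199 nt, 7.75% at 50 to 99 nt, 2.13% at 25 to 49 nt and 0.227% in the last 25 nt. A+U content was 51.4%, 53.1%, 58.3%, 65.3% and 72.1% in the same stretches. Farther from the end the 2 did not move together in this way. The share in peaks was 15.2% from 400 up to 800 nt and 9.85% from 800 up to 1600 nt, with 51.2% and 52.9% A+U. To set position and base content side by side, the distal 3′ UTRs were divided from the end into windows of 50 nt, and a window counted as bound when at least 50% of it lay in peaks. Among windows at least 100 nt from the end, 24.7% (23.2 to 26.3) of those under 40% A+U were bound, 17.8% (16.8 to 18.9) of those with 40 to 49%, 9.50% (8.71 to 10.4) of those with 50 to 59%, and 2.35% (2.01 to 2.76) of those with 60% or more. In the last 100 nt the corresponding values were 37.0% (27.3 to 47.9, 30 of 81 windows), 14.1% (9.50 to 20.4, 22 of 156), 4.46% (2.67 to 7.34, 14 of 314) and 0.265% (0.0900 to 0.775, 3 of 1134). Bound windows became rarer with A+U content in both places, and at 60% A+U or more, which was 67.3% of the windows in the last 100 nt, they were rarer near the end than farther from it. The 81 windows under 40% A+U near the end were bound more often than those farther away. Windows of 1 3′ UTR, or of 1 peak, are not independent, so the intervals cover counting error only and do not measure this difference. The genes were chosen for having a distal peak, which bears on the overall share bound and, in short 3′ UTRs, on the share near the end. The part of mapping, RNA fragment ends and base content in these shares was not tested.

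**Figure D2:**
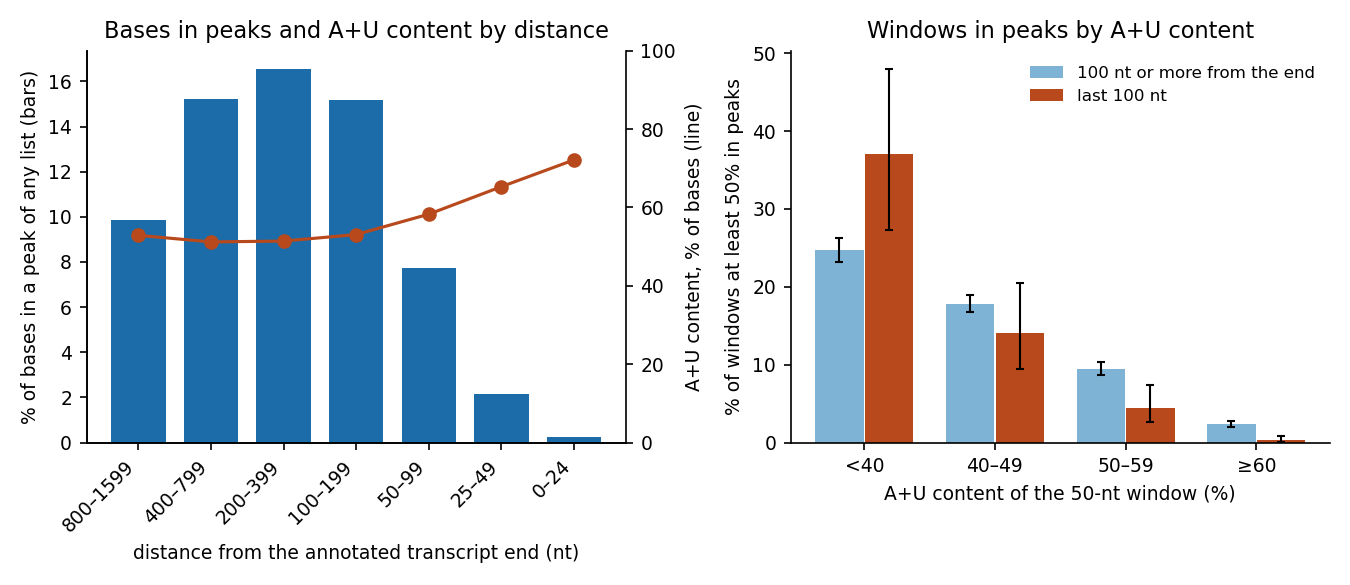
Left, share of bases of the distal 3′ UTRs of 844 genes in a peak of any list (bars, left axis, %) and A+U content (line, right axis, %) by distance from the transcript end in nt. Right, share of 50-nt windows at least 50% in peaks (vertical axis, %) by A+U content (horizontal axis, %), for the last 100 nt and for the rest, with 95% Wilson intervals. Coverage fell from 16.5% at 200 to 399 nt to 0.227% in the last 25 nt while A+U rose from 51.4% to 72.1%.

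Per kb, the signals for which 3′ UTRs are known were rarer in the peaks than in the rest of the same 3′ UTRs. Bases in peaks were 17.9% A, 27.1% C, 30% G and 25.0% U, against 25.5% A, 22.2% C, 23.1% G and 29.3% U in the rest of the same distal 3′ UTRs. The polyadenylation hexamer AATAAA, searched on the mRNA strand, occurred 7 times in 120164 bases in peaks (0.0583 per kb) and 1186 times in 939434 bases outside (1.26 per kb). ATTAAA occurred 3 times in peaks (0.0250 per kb) and 564 times outside (0.60 per kb). The AU-rich core ATTTA occurred at 0.175 per kb in peaks and 1.76 per kb outside. The Pumilio core TGTANATA occurred at 0.0832 per kb in peaks and 0.208 per kb outside. By list, 11 of 953 distal peaks over FLAG input held it (1.15%, beside 0.349% of all mRNA peaks of that list). Over V5 input it was in 1 of 906 (0.110%, beside 0.189%). GU and a run of G, searched as GT and GGG, went the other way, with 72.9 per kb in peaks and 57.6 outside for GT, and 31.4 and 19.6 for GGG. Of the 844 canonical transcripts, 740 (87.7%) had AATAAA or ATTAAA in their last 50 nt. A match of letters is a description and not a used site, and the part of the lower A+U content of the peaks in these counts was not tested.

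Folding gave another contrast within the same 3′ UTRs. The GU-loop:5nt-stem was called with RNAplfold where the pairing probability of the U in a GU stayed below 0.7 and that of all 5 following bases exceeded 0.5. Over the windows of 50 nt, calls occurred at 9.51 per kb in bound windows and 5.18 per kb in the rest, and 36.7% (34.8 to 38.7) of 2304 bound windows and 22.1% (21.5 to 22.7) of 18450 others held at least 1 call. The contrast was seen in each class of A+U content: 37.3% (34.0 to 40.7) and 24.8% (23.2 to 26.6) under 40%, 35.8% (32.7 to 39.0) and 24.0% (22.7 to 25.4) at 40 to 49%, 38.3% (34.0 to 42.7) and 23.1% (22.0 to 24.4) at 50 to 59%, and 33.8% (26.7 to 41.6) and 19.4% (18.5 to 20.3) at 60% or more. GU itself was more frequent in bound windows, with 71.5 against 56.8 per kb, and so was pairing, with a mean probability per base of 0.556 against 0.497. The part of these 2 measures in the count of calls was not tested.

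**Figure D3:**
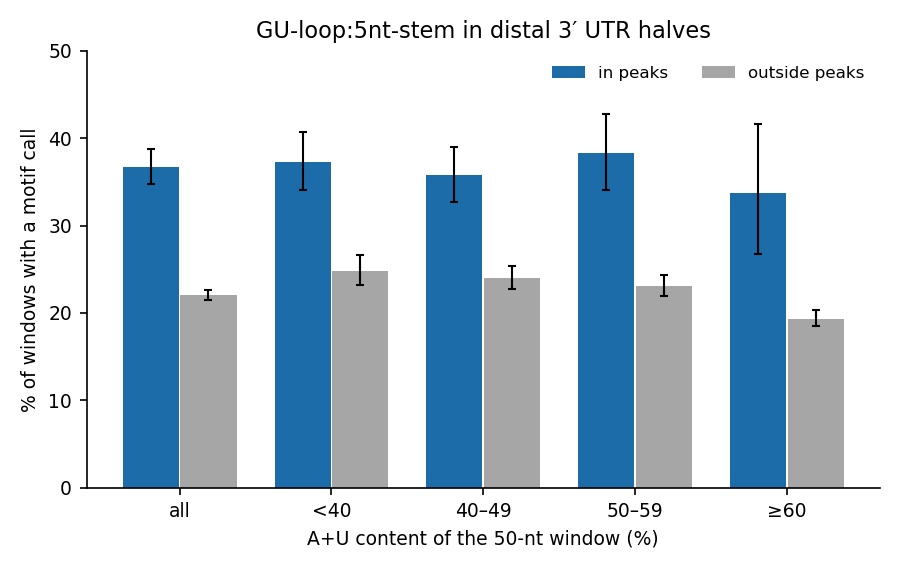
Share of 50-nt windows of the distal 3′ UTRs with at least 1 GU-loop:5nt-stem call (vertical axis, %), for windows at least 50% in peaks and for the others, over all windows and by A+U content (horizontal axis, %), with 95% Wilson intervals. Bound windows held a call in 33.8% to 38.3% of cases in every class and other windows in 19.4% to 24.8%.

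Counted per peak, the motif was called in 451 of 906 distal peaks over V5 input (49.8%, 46.5 to 53) and 477 of 953 over FLAG input (50.1%, 46.9 to 53.2). Over all mRNA peaks of these lists the share was 41.6% and 39.6%. Over the empty vector IPs, 54.2% (48.7 to 59.6) of the V5 and 48.4% (43.4 to 53.4) of the FLAG distal peaks had a call. Distal peaks were also longer than peaks in coding sequence, and the part of length in their higher share was not tested. Distal peaks had a median length of 81, 87, 81 and 81 nt in the 4 lists, against 63, 62, 56 and 52.5 nt for peaks in coding sequence, and among peaks of at least 50 nt the share was 54.5% for distal and 51.7% for all mRNA peaks over V5 input, and 56.0% and 49.9% over FLAG input. The proximal 3′ UTR, before the midpoint, was close to the distal one, with 49.9% over V5 input and 47.4% over FLAG input. Distal peaks with and without a call had similar enrichment: the median log2 was 3.73 (quartiles 3.39 and 4.21) and 3.70 (3.37 and 4.16) over V5 input, and 3.75 (3.38 and 4.29) and 3.77 (3.36 and 4.28) over FLAG input.

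Median enrichment was slightly higher in the distal 3′ UTR than in the proximal 3′ UTR or the coding sequence, which was not tested. The median log2 of distal peaks was 3.72 (quartiles 3.38 and 4.18) over V5 input, 3.67 (3.34 and 4.04) over the V5 empty vector IP, 3.76 (3.37 and 4.29) over FLAG input and 3.68 (3.30 and 4.13) over the FLAG empty vector IP. Proximal 3′ UTR peaks had medians of 3.63, 3.59, 3.64 and 3.62, and coding sequence peaks 3.56, 3.62, 3.55 and 3.55. A log2 of at least 4, or 16 times the control, was reached by 298 distal peaks over V5 input (32.9%, against 27.7% of all peaks of that list), by 89 over the V5 empty vector IP (27.9%, against 28.0%), by 353 over FLAG input (37.0%, against 29.1%) and by 122 over the FLAG empty vector IP (32.4%, against 26.2%). The V5 empty vector list thus stood at the share of all its peaks, and the other 3 lay 5 to 8 percentage points above theirs. Among proximal 3′ UTR peaks the share was 28.0%, 28.2%, 30% and 28.9% in the same order. The distal and proximal 95% intervals were apart only over FLAG input (34.0 to 40.2 and 27.7 to 32.4). At a log2 of at least 5, the distal share exceeded the proximal one only over FLAG input (6.61% and 5.60%). It was the lower one over V5 input (3.86% and 4.11%), the V5 empty vector IP (3.13% and 3.66%) and the FLAG empty vector IP (4.26% and 4.89%). The lists start at a log2 of 3, so these medians and shares describe called peaks and not the whole range of binding. In genes with peaks on both sides of the midpoint, the highest distal peak exceeded the highest proximal one in 152 of 253 genes over V5 input (median difference 0.21), 37 of 68 over the V5 empty vector IP (0.04), 148 of 260 over FLAG input (0.14) and 37 of 64 over the FLAG empty vector IP (0.21). The quartiles of these differences lay on both sides of 0 in every list. At the midpoint itself, the member of the V5 input list nearest to it was a peak in ABHD2 at nt 3469 of 6932 (log2 3.49), and the nearest peak outside was in PDXP at nt 531 of 1061 (log2 3.31). Over FLAG input these were CECR2 at nt 2659 of 5311 (4.93) and CHMP3 at nt 1186 of 2374 (3.84).

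More than 50% of the distal peaks of each tag overlapped a peak of the other tag over the same kind of control. Of the distal peaks over V5 input, 59.3% (56.0 to 62.4) overlapped a peak over FLAG input by at least 1 nt, beside 54.0% of all V5 input peaks and 57.5% (54.9 to 60.1) of the proximal ones. In the other direction it was 58.0% (54.9 to 61.1), beside 55.8% of all FLAG input peaks and 56.7% (54.2 to 59.2) of the proximal ones. Over the empty vector IPs, 53.9% (48.4 to 59.3) of the V5 distal peaks overlapped a FLAG peak, beside 30.6% of all peaks of that list, 24.1% (22.1 to 26.1) of its coding sequence peaks and 46.5% (42.0 to 51.0) of its proximal 3′ UTR peaks, whose interval overlaps the distal one. Of the FLAG distal peaks 52.1% (47.1 to 57.1) overlapped a V5 peak, beside 50.4% of all and 46.0% (41.7 to 50.5) of the proximal ones. Within a tag, where both lists share the IP libraries, 34.2% of the distal peaks over V5 input overlapped a peak over the V5 empty vector IP (36.0% of all) and 36.5% of those over FLAG input one over the FLAG empty vector IP (27.9% of all). Conversely 93.4% of the distal peaks over the V5 empty vector IP overlapped one over V5 input (76.6% of all), and 92.3% of those over the FLAG empty vector IP one over FLAG input (90.5% of all). Peaks that met a peak of the other tag were higher: over V5 input their median log2 was 3.89 against 3.54 for distal peaks that met none, and over FLAG input 3.93 against 3.58.

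Distal peaks that touched or overlapped within a gene were merged across the 4 lists into 1201 loci with a median length of 94 nt. A single distal locus was found in 618 of the 844 genes, at least 2 in 226 and at least 4 in 33, and 431 of the 844 genes (51.1%) also had a proximal locus. Support was uneven: 638 loci had a peak in 1 list, 301 of them in V5 input and 308 in FLAG input, and 289, 143 and 131 loci had peaks in 2, 3 and 4 lists. The 131 loci in all 4 lists lay in 115 genes and were 10.9% (9.27 to 12.8) of the distal loci. In the proximal 3′ UTR, where the same merging gave 1928 loci, 146 were in all 4 lists, or 7.57% (6.47 to 8.84). Loci in more lists were longer, with medians of 79, 106, 120 and 140 nt for 1 to 4 lists. A motif call was found in 47.5% (43.6 to 51.4) of the loci in 1 list and in 73.3% (65.1 to 80.1) of those in 4. Calls per kb were 9.05, 10.2, 8.17 and 9.04 for 1 to 4 lists, without a steady rise. The part of locus length in the share was not tested. G+C content was 56.9% in loci of 1 list and 56.2% in loci of 4.

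At the 431 loci with peaks over both inputs, found in 339 genes, V5 was higher at 225 and FLAG at 206. The median difference of V5 minus FLAG in log2 was 0.02, with quartiles of -0.39 and 0.46, and 54 loci differed by more than 1. Pearson's r between the tags was 0.489 (Spearman's rho 0.466), close to the 0.515 (0.432) of 651 proximal loci. Across the 136 distal loci with peaks over both empty vector IPs it was 0.145 (0.141), and across 163 proximal loci 0.506 (0.438). These are descriptions over loci that share libraries, and the difference between distal and proximal loci was not tested.

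**Figure D4:**
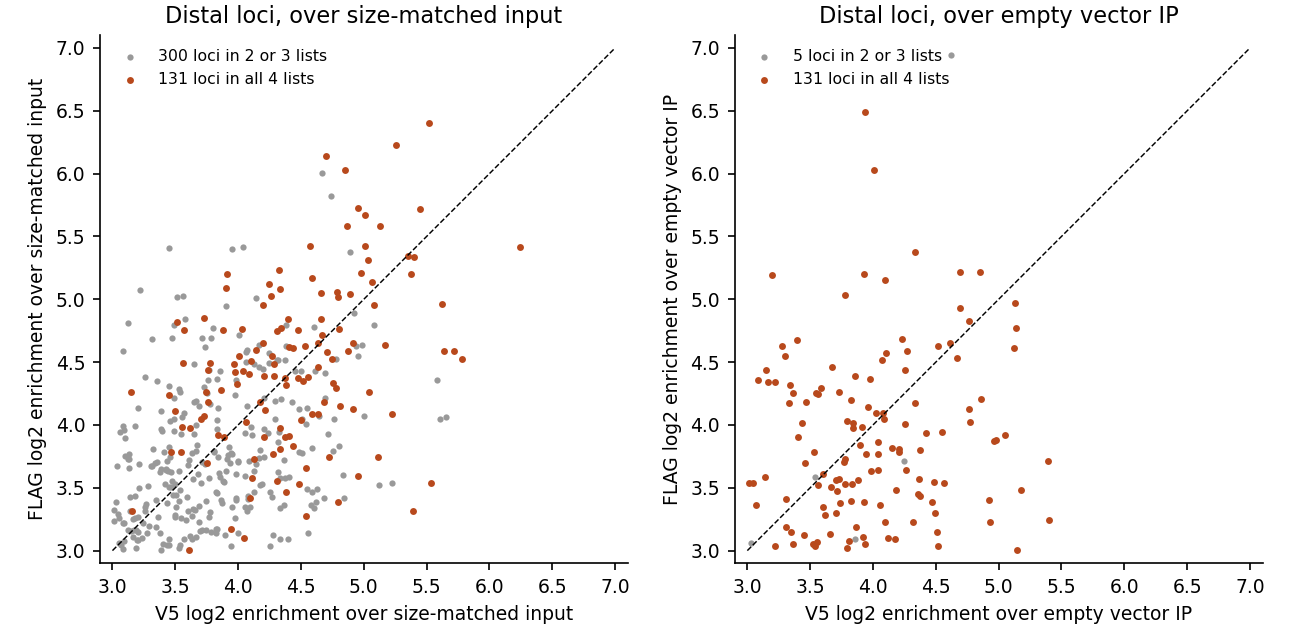
FLAG log2 enrichment (vertical axis) against V5 log2 enrichment (horizontal axis) of distal loci, 1 point per locus at its highest peak of each list. Left, 431 loci over the size-matched inputs; right, 136 loci over the empty vector IPs. Red points are the 131 loci in all 4 lists, and the dashed line marks equal values. The left cloud rises along the line (r = 0.489), and the right one barely does (r = 0.145).

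The distal loci with the highest mean enrichment over both inputs among those in all 4 lists lay in genes of several kinds. CDKN1A, which encodes the cyclin-dependent kinase inhibitor p21, led. Its locus at chr6:36686740-36686846, 486 nt from the transcript end, had log2 values of 5.52 over V5 input, 3.34 over the V5 empty vector IP, 6.40 over FLAG input and 4.32 over the FLAG empty vector IP. Another CDKN1A locus at chr6:36687008-36687238, 94 nt from the end, had 5.40, 3.93, 5.34 and 6.49 in the same order. Both loci lay in a 3′ UTR of 1532 nt, and their order over the empty vector IPs was the reverse of that over the inputs.

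TNPO2, a nuclear import receptor, had 1 distal locus (chr19:12700111-12700198, 910 nt from the end) with 6.24 over V5 input, 4.77 over the V5 empty vector IP, 5.42 over FLAG input and 4.02 over the FLAG empty vector IP. UNC119B, which carries lipid-modified proteins to the cilium, had 5.25, 4.01, 6.23 and 6.03 at chr12:120723024-120723291, the highest of its 5 distal loci. TRIB3, a stress-induced pseudokinase, had 5.45, 4.96, 5.72 and 3.87 at a locus 74 nt from the end of a short 3′ UTR of 869 nt (chr20:397328-397485). In these 3 genes every list was above a log2 of 3.8, and the tag with the higher value over input differed from gene to gene.

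FLAG led over input at IQSEC1, an exchange factor for ARF GTPases, with 6.03 against 4.85 for V5, and at L3MBTL2, a Polycomb-group chromatin protein, with 6.14 against 4.70. It also led at MAPKAPK2, a kinase downstream of p38, with 5.58 against 5.13, at UCK1, a uridine-cytidine kinase, with 5.67 against 5.01, and at SLC38A1, a glutamine transporter, with 5.73 against 4.95. V5 led at GID4, a substrate receptor of a ubiquitin ligase, with 5.62 against 4.96. ARF3, a small GTPase of the Golgi, was even, with 5.36 for V5 and 5.34 for FLAG, and so nearly was PPP1CA, a catalytic subunit of protein phosphatase 1, with 5.38 and 5.20. Over the empty vector IPs these 8 loci lay between 3.94 (MAPKAPK2, FLAG) and 5.22 (IQSEC1, FLAG).

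**Figure D5:**
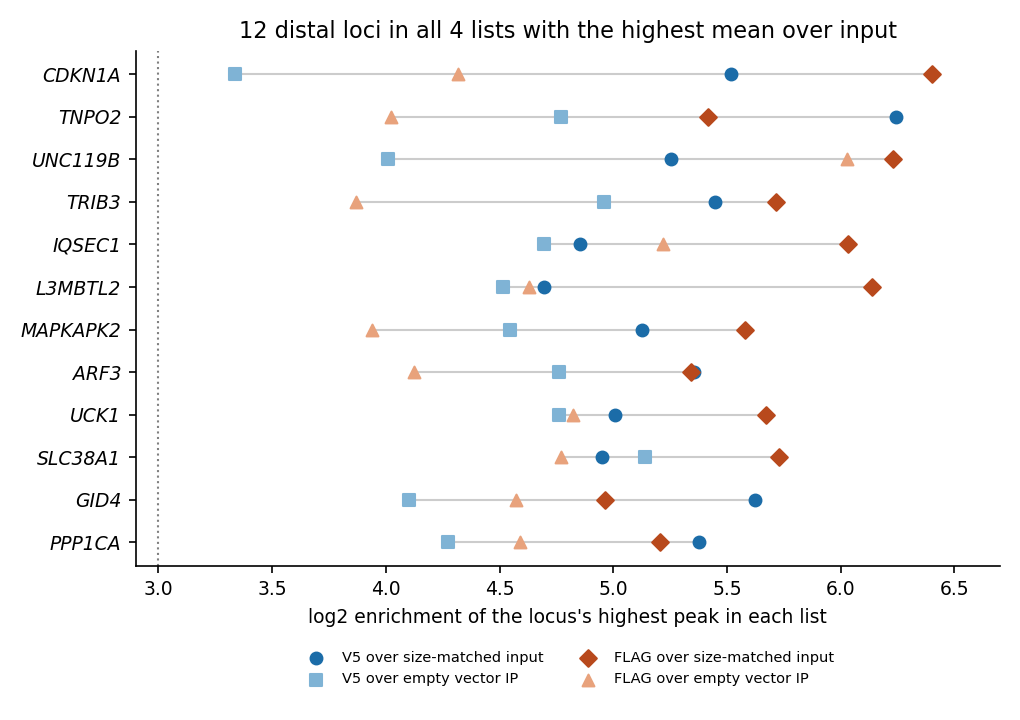
Log2 enrichment (horizontal axis) at distal loci in all 4 lists, for the 12 genes with the highest mean over both inputs. Each row is the highest such locus of 1 gene, with 1 symbol per list, so further loci of a gene are left out. The dotted line marks the lists' lower limit of 3. Values ran from 3.34 (CDKN1A, V5 over empty vector IP) to 6.40 (CDKN1A, FLAG over input).

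Ranked by the empty vector IPs instead, ATF3 and YKT6 joined CDKN1A, UNC119B and IQSEC1 among the highest 5. ATF3, a stress-induced transcription factor, had 4.86 over V5 input, 5.13 over the V5 empty vector IP, 5.58 over FLAG input and 4.97 over the FLAG empty vector IP at chr1:212620392-212620530. YKT6, a SNARE of vesicle fusion, had 5.03, 4.85, 5.31 and 5.21 at chr7:44213281-44213492. In these 2 genes all 4 values lay within 1 log2 unit of each other, whereas those at CDKN1A spread over more than 2.

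Several genes were bound at many places in the distal 3′ UTR. ILRUN, a regulator of inflammatory signalling, had 8 distal loci in a 3′ UTR of 3277 nt, 5 of them over both inputs but only 1 in all 4 lists. FAM168B, which encodes a small membrane protein, had 6, of which 4 were in all 4 lists. The highest of these, at chr2:131048579-131048726, had 4.59 over V5 input, 3.28 over the V5 empty vector IP, 5.17 over FLAG input and 4.63 over the FLAG empty vector IP. GPR107, a receptor-like membrane protein, had 5, with 5.06, 4.61, 5.14 and 4.65 at the highest (chr9:130139554-130139695). CDIP1, a proapoptotic gene downstream of p53 that the study followed up, and ACTB and GAPDH, used in qPCR, had no distal locus. CDIP1 had peaks elsewhere on its mRNA: 7 over V5 input, 7 over the V5 empty vector IP, 7 over FLAG input and 6 over the FLAG empty vector IP. ACTB had no peak in any list, and GAPDH had 1, over FLAG input.

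The 3 loci in all 4 lists nearest to a transcript end were those of PPP1CA, 29 nt away, of PMVK, an enzyme of the mevalonate pathway, 30 nt away, and of RBM15, a subunit of the m6A writer complex, 33 nt away. PMVK (chr1:154924770-154924864) had 4.33 over V5 input, 4.23 over the V5 empty vector IP, 5.24 over FLAG input and 4.68 over the FLAG empty vector IP. RBM15 (chr1:110346523-110346644) had 4.75, 3.37, 4.34 and 4.25. All 3 lay in short 3′ UTRs of 352, 389 and 410 nt, and each held a motif call in the stretch shared by the 4 lists.

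At the other extreme, some loci were high with 1 tag and had no peak of the other. PITX1, a homeobox factor, had 5.36 over V5 input, C8orf33 had 5.21 and FANCE, a subunit of the Fanconi anaemia core complex, had 4.82, each with no FLAG peak on the locus. MED27, a Mediator subunit, had 6.24 over FLAG input and 3.39 over the FLAG empty vector IP, and GOLGA3, a golgin, had 5.22 and 4.14, each with no V5 peak. A further CDKN1A locus, at chr6:36686869-36686931, belonged here too, with 5.32 over FLAG input and 4.06 over the FLAG empty vector IP, although it lay between the 2 CDKN1A loci found in all 4 lists. Absence from a list means that no peak passed its thresholds, and the depth behind that is unknown.

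Gene groups were counted against the 24.3% of all genes with an mRNA peak that had a distal one (844 of 3467). Among growth and stress genes, 8 of 24 p53 targets had a distal peak (33.3%, 18.0 to 53.3), 9 of 26 cell cycle regulators (34.6%, 19.4 to 53.8) and 5 of 15 immediate early and stress transcription factors (33.3%, 15.2 to 58.3). The intervals of all 3 groups include the background. After CDKN1A, the highest p53 targets were SESN2, a stress-induced regulator of mTORC1, with 4.55 over V5 input and 4.13 over FLAG input, and AEN, an apoptosis-related nuclease, with 4.28 and 4.39. MCM2, a subunit of the replicative helicase, had 5.23 over V5 input, 3.94 over the V5 empty vector IP, 4.09 over FLAG input and 3.05 over the FLAG empty vector IP. E2F2, a transcription factor of the G1/S transition, had 4 distal loci, and the highest, 46 nt from the end of a 3′ UTR of 3442 nt, had 4.44, 4.26, 4.61 and 4.44.

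Genes that act on mRNA themselves had the highest share, 13 of 30 (43.3%, 27.4 to 60.8), in 3′ UTRs with a median length of 2964 nt against 1635 nt for all genes. The lower limit lies above the background, and the part of 3′ UTR length in it was not tested. Of the 13, 3 had a locus over both inputs, beside 339 of all 844 genes with a distal peak. UPF1, the helicase of nonsense-mediated decay, had 3.73 over V5 input and 4.85 over FLAG input, BTG2, which recruits deadenylases, had 4.00 and 3.70, and IGF2BP1, an mRNA-stabilizing protein, had 3.85 and 3.62. Of 6 cleavage and polyadenylation factors 1 had a distal peak: CPSF4, a subunit that binds the polyadenylation signal, with 3.18 and 3.16.

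At the low end were genes with short 3′ UTRs. Of 51 genes whose symbols match cytoplasmic ribosomal proteins, 4 had a distal peak (7.84%, 3.09 to 18.5), with a median 3′ UTR of 174 nt over the 51. The 4 were RPL13A, RPL28, RPL37 and RPL7L1, the last a match of symbol only. RPL13A had 3.97 over V5 input, 3.72 over the V5 empty vector IP, 4.42 over FLAG input and 3.48 over the FLAG empty vector IP, 98 nt from the end of a 3′ UTR of 493 nt. RPL28 and RPL37 counted because their canonical transcripts have 3′ UTRs of 3753 and 7242 nt. Among genes whose symbols match histones it was 2 of 29 (6.90%, 1.91 to 22.0). The upper limits of both groups lay below 24.3%, and the part of 3′ UTR length in this was not tested.

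The other groups lay nearer to the background. Distal peaks were found in 17 of 67 solute carriers (25.4%), 26 of 110 genes of the ubiquitin system (23.6%), 18 of 59 of small GTPases and trafficking (30.5%), 17 of 61 signalling kinases and phosphatases (27.9%), 16 of 47 TMEM genes (34.0%), 10 of 59 ZNF genes (16.9%) and 2 of 13 tubulins, actins and kinesins (15.4%). The background of 24.3% lay inside the 95% interval of each. SLC66A2, a PQ-loop transporter, had 5.58 over V5 input, 5.15 over the V5 empty vector IP and 4.36 over FLAG input, and SLC7A5, a large neutral amino acid transporter, had 4.26 over V5 input, 4.93 over the V5 empty vector IP, 5.02 over FLAG input and 3.40 over the FLAG empty vector IP. KLHL18, an adaptor of cullin ubiquitin ligases, had 5.04 over V5 input and 4.26 over FLAG input, and UBE2J2, a ubiquitin-conjugating enzyme, had 4.50 and 4.43. PPP6R3, a regulatory subunit of protein phosphatase 6, had 5.12 over V5 input but 3.52 over FLAG input. ARL2BP, a binding partner of the GTPase ARL2, had 4.63 and 4.66, and TMEM11, a mitochondrial inner membrane protein, had 4.89 and 5.04 at a locus 37 nt from the transcript end. ZNF598, a ubiquitin ligase that senses collided ribosomes, had 4.38 and 4.52, and KIF1A, a neuronal kinesin, had 4.10 and 3.99.

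Most members lay wholly past the annotated midpoint, and few had another gene on the same strand. Of the 2554 members, 2334 (91.4%) lay past the midpoint with their whole length, 142 (5.56%) had another annotated gene on the same strand and 478 (18.7%) one on the opposite strand, and eCLIP reads keep the strand. The midpoint of 20 members lay on a second canonical mRNA. Alternative polyadenylation in these cells was not measured, so an annotated end may not be the end in use. With the transcript of the longest 3′ UTR there were 2616 distal peaks, and how many peaks changed sides was not counted.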

How the data were processed

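The authors aligned eCLIP reads to hg38 and called peaks with their pipeline (version 0.4.0). The submitters' processing notes also name UMI-tools 1.0.0, cutadapt 1.14, STAR 2.4.0i and SAMtools 1.6. The authors merged the peaks of both replicates by the Irreproducible Discovery Rate, ranked by entropy, and kept a mean ratio to control of at least 8 and p under 0.001. The deposited lists give per peak the log2 of that ratio and the −log10 of a p-value, which stops at 400 and was not used for ranking. Scaling for library size before the ratio is not given in the sources used here, and library depth is unknown.

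Peaks were placed on canonical transcripts of GENCODE 44 by their midpoint. Pairing was computed with ViennaRNA 2.7.2 (window and span 70, flanks of 50 nt, or the whole 3′ UTR for windows). Shares have 95% Wilson intervals, which cover counting error only, and no test was run because each list has 1 value per peak. The placement and motif steps were tested on simulated data. The statistics used Python 3.11.15, numpy 2.4.6 and pandas 2.3.3.

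The region and the gene lists were chosen with earlier results of these data known. Genes named were, among distal loci, the 12 highest over input (average of both tags) and the 5 highest over the empty vector IPs (in all 4 lists), the 3 with most loci over both inputs, genes the study followed up, up to 3 per gene list, the 3 highest with each tag alone, and the 3 nearest to a transcript end. 2 genes under this rule are not reported here. Alternatives were another placement, a higher threshold, other overlaps and other motif settings.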

Additional observations from a re-analysis of the deposited data

How the results depend on the processing

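No paired analysis was possible because every deposited value combines both replicates, and for the same reason no replicate could be left out. Of 105 alternatives to 26 results, 69 stayed within 1.5 times the main count or inside the main interval and 36 moved. Merging touching peaks of a list, midpoints in genomic bases, 3′ UTRs of at least 500 nt, the transcript with the longest 3′ UTR and an allowance of 100 nt past the end moved none of the values they were applied to. The allowance past the end added no peak to any list. Requiring a log2 of at least 4 left 298, 89, 353 and 122 distal peaks (862 in all) in the order V5 input, V5 empty vector IP, FLAG input and FLAG empty vector IP, and by construction raised the medians to 4.39, 4.37, 4.45 and 4.36. It raised the distal share to 42.6% over V5 input and 44.2% over FLAG input, left 443 loci with 23 in all 4 lists, and lowered the overlaps to 53% (V5 input with FLAG input), 48.7% (FLAG with V5), 23.5% (V5 input with its empty vector list) and 28.0% (FLAG). Counting only peaks wholly past the midpoint gave shares of 35.2%, 37.0%, 36% and 39.6%. Asking for 50% of the peak to be covered gave overlaps of 54.9% and 53.1% between the tags. The correlation over input was 0.401 across loci in all 4 lists. Motif calls with the U under 0.5 and the stem over 0.7 were made in 13.7% (V5 input) and 13.9% (FLAG input) of distal peaks, and in peaks of at least 50 nt in 54.5% and 56.0%. Peaks within 100 nt of the end were 8.06%, 7.84%, 8.18% and 7.98%, and peaks within 50 nt of the nearest end of any coding transcript 4.97%, 5.96%, 4.83% and 5.85%. By construction, the whole-length rule, the 50% cover and the stricter motif setting could only lower their values. The limit of 100 nt could only raise its value, and the higher threshold could only lower the counts of peaks. The cause of the other shifts was not tested. Calls near the threshold of 3 and the absence of a peak are limited by a depth that is unknown.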

Other observations

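The highest distal peak of any list was in H2AC11, a replication-dependent histone gene named here after its values were seen. Its 3′ UTR of 71 nt was the shortest with a distal peak, and the locus at chr6:27133494-27133532, 3 nt from the transcript end, had log2 values of 7.67 over FLAG input, 6.95 over the FLAG empty vector IP and 4.62 over the V5 empty vector IP, with no distal peak over V5 input. Unlike H2AC11, loci in GAB2 and PPM1F had high FLAG values without a distal peak over the V5 empty vector IP on the locus. Both were also named after their values were seen. GAB2, an adaptor of receptor signalling, had 6.0 over FLAG input and 4.67 over V5 input. PPM1F, a protein phosphatase, had 5.82 and 4.74.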
